A study of Mus musculus with 8 samples.

Results

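CT3 is one of the connective tissue (CT) clusters that the authors annotated among nuclei of the petrous temporal bone (PTB), the skull bone that holds the inner ear. Nuclei were taken as CT3 where the deposited annotation gave that name, and each was matched by library and barcode to the raw counts of unique molecular identifiers (UMIs, one per captured RNA molecule). CT3 held 873 of 31076 annotated nuclei (2.81%) and ranked 13 of 15 types by number. The annotation names cartilage, bone, osteoclast and connective tissue types only, and the study's text counts more bone nuclei than it holds. Shares and ranks below are therefore among these annotated types, and nuclei of other kinds were not analysed here. Single-nucleus RNA sequencing was run on PTB from postnatal day 5.5 (P5.5) mice to compare Tbx1+/- animals, which carry 1 working copy of the transcription factor gene Tbx1, with wild-type (WT) littermates. Each genotype had 2 libraries, 1 from each of 2 batches of animals. Each library pooled 5 mice, from a colony of both sexes backcrossed onto C57BL/6J. The labels give only a replicate number, and libraries of the same number were taken here to be of the same batch. Libraries served as the replicates throughout, since nuclei of 1 library share their pool. Neither the exons removed in the Tbx1 allele nor the position of CT3 nuclei in the bone was given in the sources used here, and the mice were haploinsufficient in every tissue, so that an effect arising inside CT3 cannot be told apart from one arising elsewhere.

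Connective tissue of the developing skull base comes from mesenchyme, which surrounds the cartilage template of the otic capsule and supplies the perichondrium, ligaments and fibrous layers as bone replaces cartilage. Its cells secrete fibrillar collagens such as type III (Col3a1) and proteoglycans such as versican (Vcan), while cartilage cells deposit type II collagen and aggrecan (Acan). Fibroblast growth factors (FGFs), Wnt and hedgehog ligands pass between mesenchyme, cartilage and epithelium and set which cells divide and which mature.

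The 4 libraries, named WT 1, Tbx1+/- 1, WT 2 and Tbx1+/- 2 and listed in this order below, held 239, 213, 239 and 182 CT3 nuclei. These nuclei carried 1149611, 1035848, 1443700 and 1105776 UMIs, with medians of 4366, 4481, 5270 and 5369 UMIs per nucleus. The median percentage of mitochondrial UMIs in CT3 was 1.23, 1.03, 0.574 and 0.701, against 1.41, 1.07, 0.635 and 0.746 over all annotated nuclei of the same library. Pairs of libraries shared 11 to 26 annotated barcodes, or 0.184 to 0.405% of the smaller library, and no barcode was CT3 in more than 1 library. Levels below are CPM, a gene's UMIs scaled to 1000000 UMIs, of the summed CT3 nuclei of a library. On the deposited UMAP map, 839 of the CT3 nuclei formed a single strip, and 34 lay more than 2 map units from the CT3 median (10, 4, 10 and 10 by library), mostly among other types. Both facts are shown in the map.

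**Figure D1:**
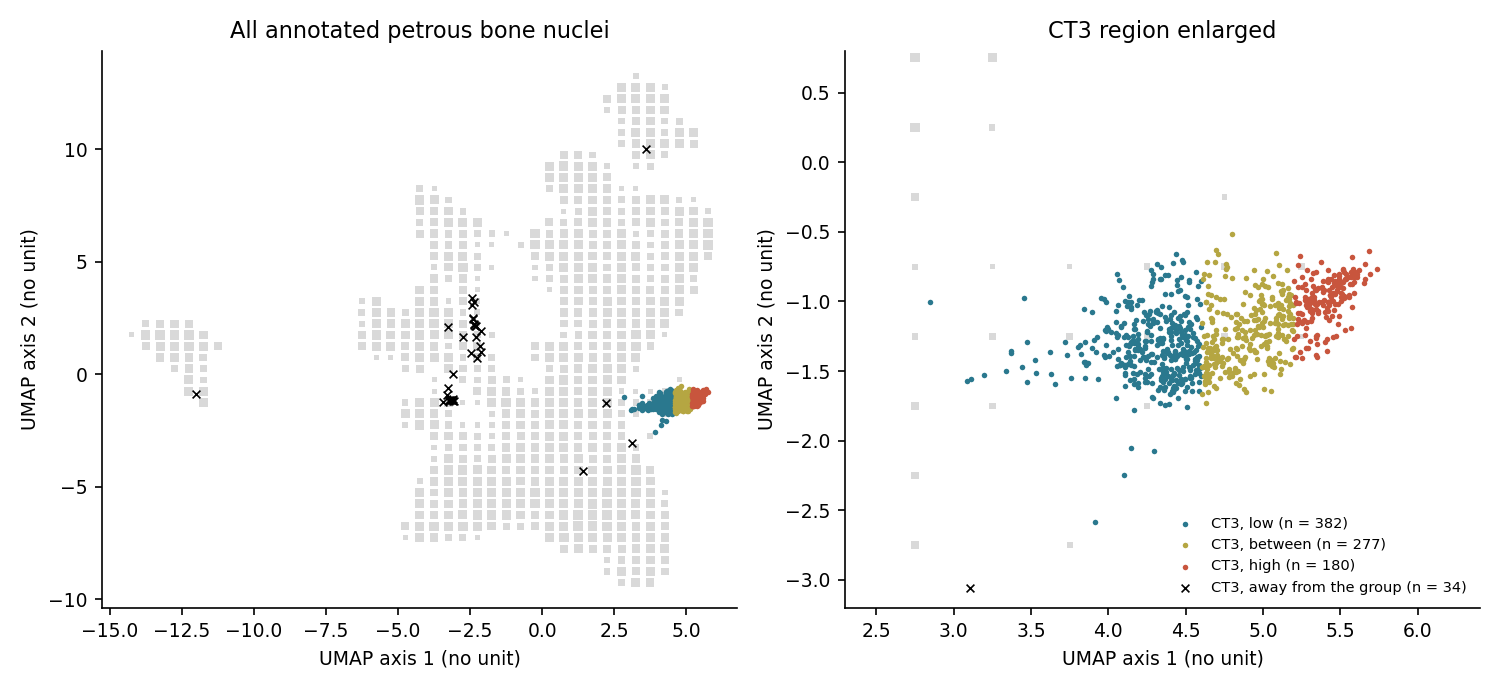
Deposited UMAP positions (axes without unit) of all annotated PTB nuclei in grey bins and of CT3 nuclei in colour, with the CT3 region enlarged at right. CT3 forms a strip that runs from 382 nuclei at low values of axis 1 through 277 between to 180 at high values, and 34 crosses mark nuclei away from it.

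The name connective tissue and the marker pair given for CT3, Col3a1 and Acan, were checked first. Col3a1 was at 792, 702, 426 and 377 CPM in CT3, the 7th level of 15 types. CT1 averaged 1693 CPM and osteoclasts 302 CPM. On log2(CPM + 5), Col3a1 in CT3 was 0.06 to 0.24 below the mean of the other 14 types in the same library. Acan was at 155, 182, 200 and 160 CPM in CT3, the 4th level of 15, where matured chondrocytes averaged 1333 CPM and osteoclasts, the bone-resorbing cells that should lack it, 36.7 CPM. Acan in CT3 was 0.042 above the mean of the other types on that log2 scale and 1.54 above their median. Neither gene was highest in CT3. Vcan was closer to its name, at 309, 270, 328 and 271 CPM and the 2nd level of 15 after CT1 at 1524 CPM. Gpc3, the gene of the proteoglycan glypican 3, was at 360, 273, 353 and 387 CPM and the 5th level of 15.

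Genes of cartilage and bone stood at differing levels in CT3. Col2a1, the type II collagen gene, was at 505, 457, 276 and 258 CPM and the 14th level of 15, and Sox9, the cartilage regulator, was at 33.1, 24.1, 14.5 and 19.0 CPM and the 11th. Osteoclasts held 493, 422, 233 and 289 CPM of Col2a1, overlapping the CT3 levels, and averaged 15.2 CPM of Sox9. How much of the CT3 level of Col2a1 was free RNA was not tested. The osteoblast genes Sp7 and Alpl stood at the 9th and 7th levels, the osteocalcin gene Bglap at the 14th, and the osteocyte gene Dmp1 at the 15th. The osteoclast genes Acp5 and Ctsk were both at their lowest level of 15 in CT3, with 96.3 to 218 CPM and 213 to 401 CPM. Over 13126 genes, log2(CPM + 5) in CT3 was nearest to that in CP1 (mean Pearson r = 0.931) and CP2 (0.930), clusters that the study names chondrocyte progenitors (CP). CT4 (0.917), CT1 (0.916) and the hypertrophic chondrocyte/osteoblast type (0.916) came next. CT2, the remaining CT cluster, was at 0.870, below CP4 (0.899) and osteoblasts (0.885), and osteoclasts were farthest (0.779). These are descriptions across genes within libraries, and the types of a library share its free RNA. The sums differed in size, with 2723 nuclei in CP1 and 3579 in CP2 against 2643 in CT1, 1098 in CT2 and 809 in CT4. How far r depends on this was not tested.

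**Figure D2:**
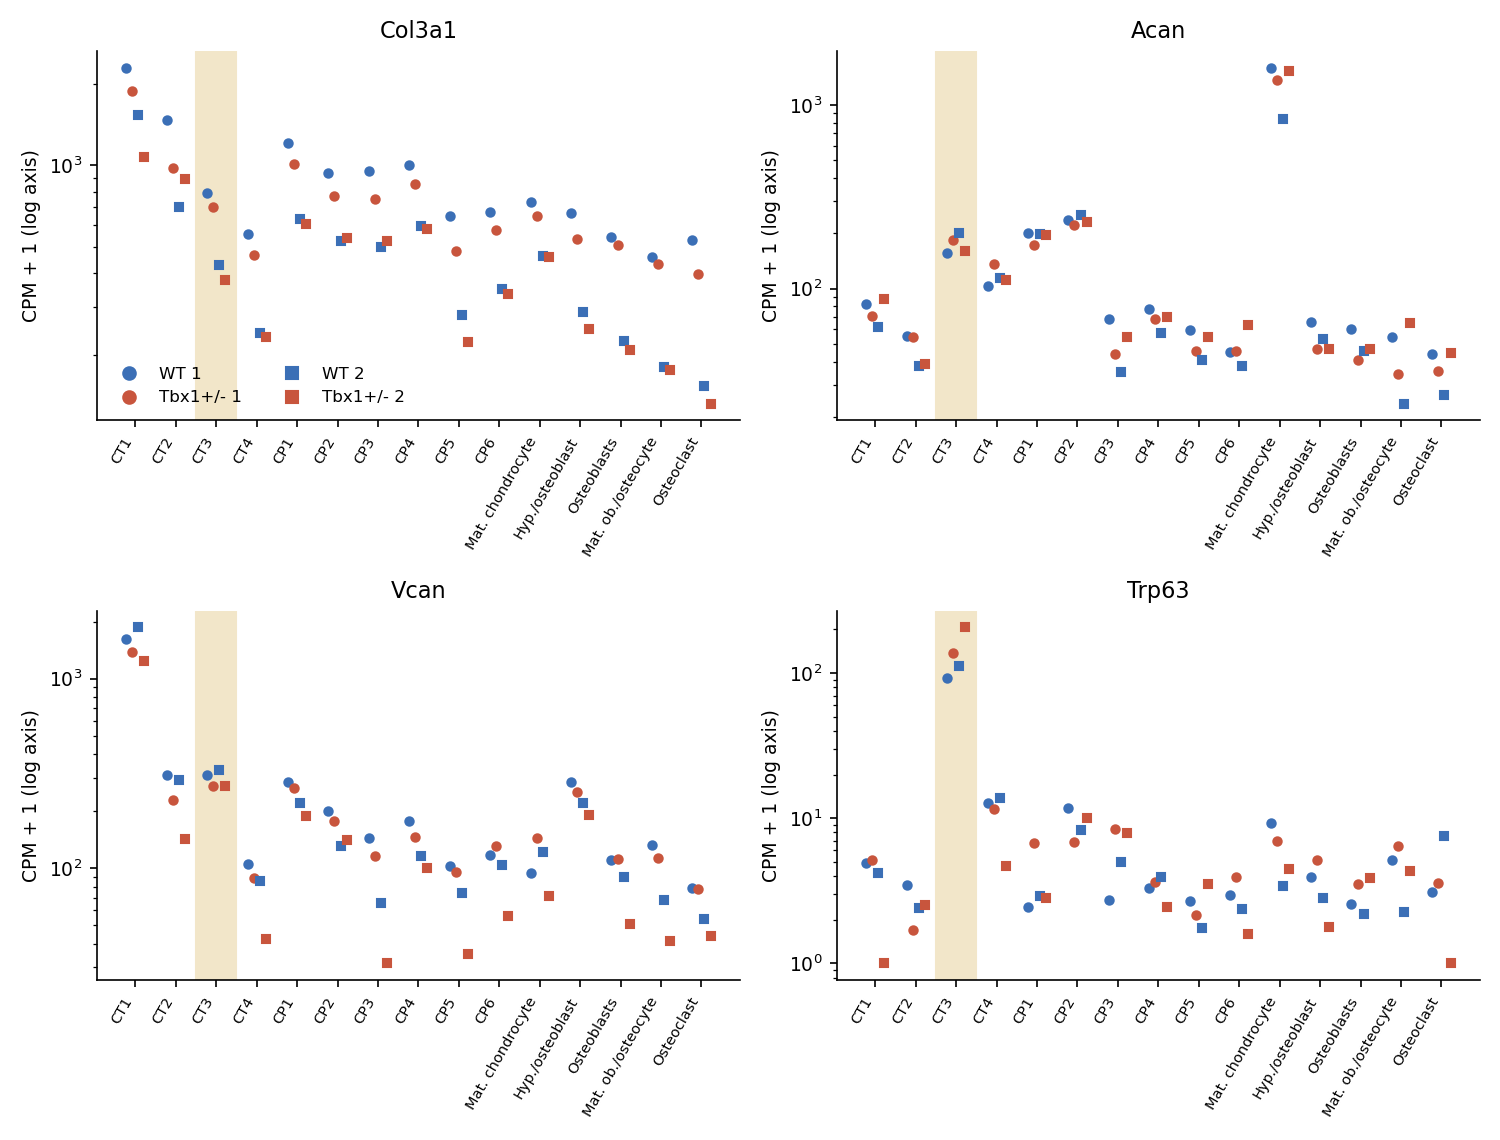
CPM + 1 on a log axis of Col3a1, Acan, Vcan and Trp63 in the 15 annotated types, with 1 point per library and CT3 shaded. Col3a1 and Acan in CT3 stand at the 7th and 4th levels of the 15 types, while Trp63 lies between 91.3 and 205 CPM in CT3 and averages 9.67 CPM in CT4, the next highest type.

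The genes farthest above the other types were others. Because CT3 is a cluster made from expression, these genes describe it and carry no test. Among 6983 genes with at least 20 UMIs in CT3 of every library, 187 were above all 14 other types in all 4 libraries, 28 of them by over 2-fold on CPM + 5, and 40 were over 4-fold above the mean of the other types. The 25 genes farthest above that mean in their lowest library, with the 10 farthest above the highest other type, made 26 leading genes. In their 4-library mean these were 2.38 to 4.08 above the mean of the other types on the log2 scale. The first gene outside the 25 was Tmem178b, with a lowest value of 2.28.

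Trp63, on chromosome 16 (mm10 chr16:25683763-25892102, plus strand), encodes p63, a transcription factor best known from the basal layer of epithelia. It was at 91.3, 137, 111 and 205 CPM in CT3, from 105, 142, 160 and 227 UMIs. No other type averaged over 9.67 CPM (CT4), and osteoclasts averaged 2.81 CPM. After thinning each nucleus to 2000 UMIs, 12.3 to 16.7% of CT3 nuclei held a Trp63 UMI by library, against 0 to 0.643% of osteoclasts. Without thinning the shares were 20.1 to 25.4% and 0 to 1.25%, at median depths of 4366 to 5369 UMIs in CT3 and 4963 to 7105 in osteoclasts. The epithelial list of 7 genes summed to only 26.3 to 51.3 CPM in CT3, the lowest of 15 types. Its keratin genes Krt5 and Krt14 had 2 and 3 UMIs in all CT3 nuclei together, and Epcam was at its lowest of 15 types, so the CT3 sums held no general epithelial profile.

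Fgf7 (chr2:126034658-126091185, plus strand), which encodes a mesenchymal growth factor that acts on epithelium, was at 353, 299, 476 and 464 CPM in CT3 and averaged 57.9 CPM in CT1, the next type. Its thinned share of CT3 nuclei was 33.5 to 45.1%, against 1.61 to 2.91% of osteoclasts. The leading gene Fam227b, at 202 to 388 CPM, lies on the opposite strand and spans the whole of Fgf7, with 56528 bases in common. Cell Ranger, the counter used, keeps to the sense strand in its usual setting, but the setting was not given in the sources used here, and how far reads of the pair were separated was not tested. Calca, which encodes calcitonin and the neuropeptide CGRP, was the other leading gene of a signalling peptide, at 61.8, 48.3, 67.9 and 64.2 CPM against 9.86 CPM in CT4.

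Receptor genes formed another group of leading genes. Lgr5 (chr10:115450311-115587780, minus strand), which encodes a receptor for R-spondins that strengthens Wnt signals, was at 363, 412, 640 and 327 CPM, above the CT1 mean of 238 CPM. Gfra2, a co-receptor for the neurotrophic factor neurturin, was at 116, 137, 134 and 100 CPM against 36.2 CPM in CT1. Agtr1a, the angiotensin II receptor, was at 90.5, 78.2, 116 and 68.7 CPM against 27.3 CPM in CT1. CT1 was thus the next type for each of these receptors. Chrna7, a nicotinic acetylcholine receptor subunit, reached 44.4 to 58.3 CPM against 11.1 CPM in CT1, and the adhesion receptor gene Adgrf5 167 to 213 CPM against 64.5 CPM in the hypertrophic chondrocyte/osteoblast type. The integrin gene Itga2 was at 542 to 690 CPM, little above its osteoclast mean of 445 CPM.

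Genes of ion handling and transport were a further group. Kcnip1 (chr11:33629339-33993152, minus strand), which encodes an accessory subunit of A-type potassium channels, was farthest above the mean of other types in its lowest library, by 3.61 on the log2 scale, although in the 4-library mean Fgf7 was farther (4.08 against 3.79). Kcnip1 was at 418, 458, 471 and 477 CPM in CT3 against 86.9 CPM in CT4, and 34.9 to 41.3% of thinned CT3 nuclei held a UMI against 2.27 to 4.26% of osteoclasts. Slc6a6, the taurine transporter, was at 1165 to 1367 CPM against 489 CPM in CP2. Ryr3, a calcium release channel, was at 341 to 450 CPM, but CP3 was higher at 582 CPM.

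Matrix and protease genes included Pappa2, a protease that cleaves IGF-binding proteins, at 105, 86.9, 163 and 119 CPM against 16.2 CPM in CT1. Ltbp2, a microfibril protein of the latent TGF-beta-binding family, was nearly even at 234 to 236 CPM against 93.2 CPM in CP2. Abi3bp, Hmcn1 and Adamts6 were at 1621 to 1913, 1807 to 2484 and 1312 to 1725 CPM, and the next types averaged 1242, 1110 and 942 CPM. Of genes that act in the nucleus, Vgll3, a cofactor of TEAD transcription factors, was at 123, 126, 155 and 144 CPM against 28.2 CPM in CT1. Mid1, a ubiquitin ligase gene on chromosome X, was at 4575, 4430, 6476 and 5001 CPM, the next type being CT4 at 1080 CPM. The leading gene 4933400A11Rik lies inside Mid1 on the other strand, and how far its 57.0 to 108 CPM were separated from reads of Mid1 was not tested either.

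**Figure D3:**
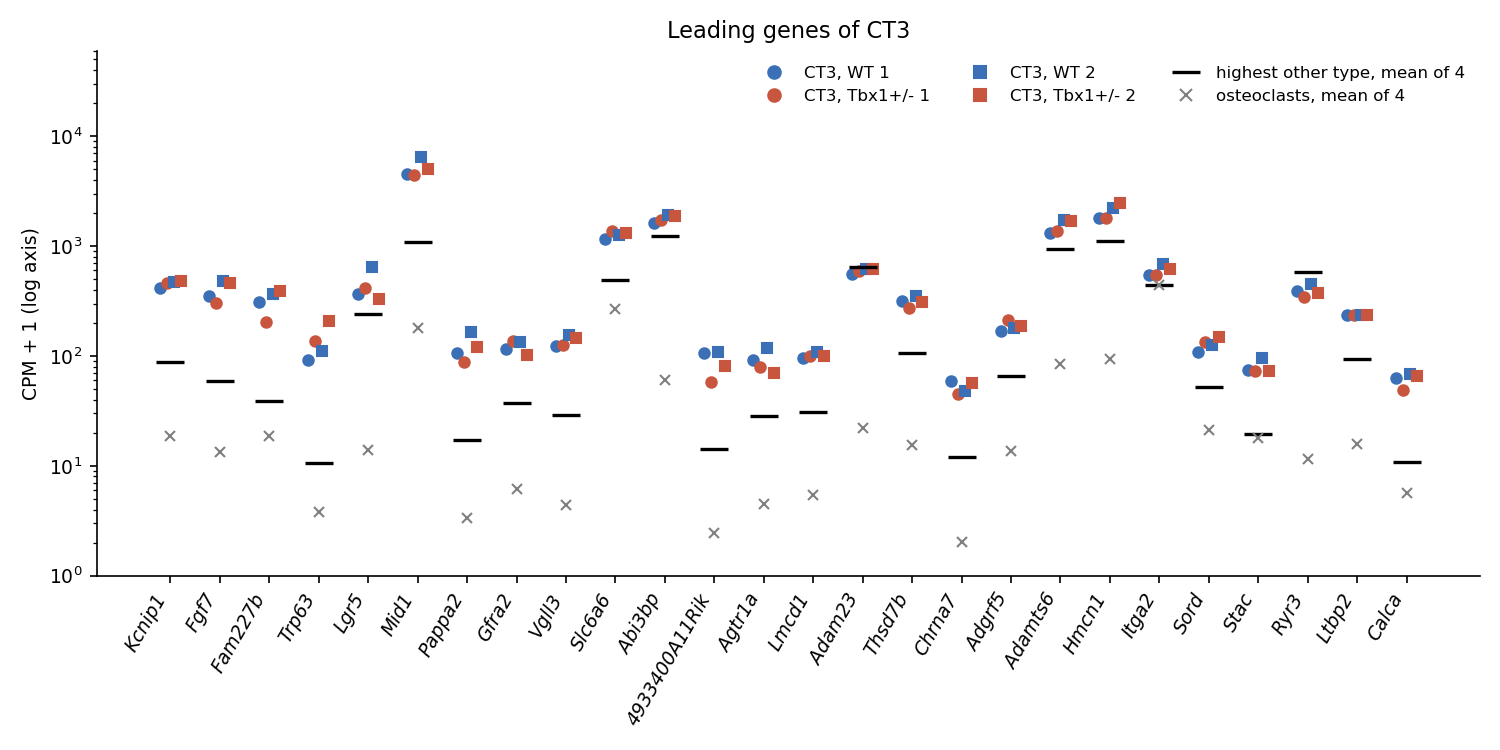
CPM + 1 on a log axis of the 26 leading genes of CT3, in order of their lowest log2 distance above the mean of other types, with 1 point per library. Black bars give the highest other type and grey crosses osteoclasts, both as means of 4 libraries: for Trp63 the 4 points lie far above the bar at 9.67 CPM, whereas for Adam23 and Ryr3 the bar is at or above them.

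Few nuclei held all of these transcripts at once. Of Trp63, Lgr5, Kcnip1 and Fgf7, 30 CT3 nuclei had a UMI of all 4 genes, 159 of 3, 321 of 2, 273 of 1 and 90 of none. A Kcnip1 UMI was found in 47.0% of the 345 nuclei with Lgr5 and in 57.4% of those without it, whereas a Pappa2 UMI was found in 31.9% and 17.0%. Undetected transcripts in a nucleus can be a matter of depth, so these shares describe detection only.

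Among signalling lists, CT3 stood first of 15 types for FGF signalling, a list of 10 genes that summed to 2918, 2985, 3302 and 3455 CPM against 2481 CPM in CP1. Fgfr2, the gene of FGF receptor 2, one form of which binds the Fgf7 product, was the largest part, at 2228, 2339, 2537 and 2709 CPM. Fgfr1 was not part of this, with 179 to 227 CPM and the 13th level, and Fgf10 had 0 to 16.4 CPM. The list of IGF genes was 2nd of 15 with 2868 to 3668 CPM, including Igf1 at 409 to 464 CPM and Igfbp2, highest in CT3, at 372 to 496 CPM. The Wnt list was 7th with 560 to 724 CPM. Its R-spondin member Rspo3 was nevertheless highest in CT3, at 265, 270, 364 and 235 CPM against 159 CPM in matured chondrocytes. TGF-beta, hedgehog and PTHrP, and BMP and GDF lists were 6th, 10th and 13th, although the BMP antagonist gene Chrdl1 was highest in CT3 at 209 to 231 CPM.

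The list of 34 craniofacial and otic mesenchyme regulators was also highest in CT3, at 5819, 6129, 7202 and 6987 CPM against 6105 CPM in CT2, although 4 of its genes had no UMI in CT3. The forkhead gene Foxp2 made up much of this sum, at 2534, 2517, 3215 and 3075 CPM against 2058 CPM in CP2. Tbx15, a T-box gene of skeletal mesenchyme, was at 430, 487, 543 and 498 CPM and highest in CT3, and Eya1, a cofactor needed for ear development, was at 1019 to 1183 CPM, below only CP2 at 1257 CPM. Erg, an ETS factor of the articular list, was at 286 to 428 CPM, while the joint lubricin gene Prg4 had 4 UMIs in all CT3 nuclei.

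Matrix lists placed CT3 among fibrous tissues only in part. The tendon and ligament list (13 genes) was 3rd of 15 types with 988 to 1200 CPM. Thbs2, the gene of thrombospondin 2, was highest in CT3 at 415, 304, 378 and 375 CPM against 150 CPM in CT1, and Tnmd, the tenomodulin gene, was highest at 34.4 to 71.3 CPM, but the tendon regulator Scx had only 9 UMIs in CT3. Ogn, Aspn and Matn4, genes of small proteoglycans and a matrilin, were highest in CT3 at 327 to 498, 286 to 413 and 382 to 591 CPM. Col12a1, a collagen of dense connective tissue, was at 1482, 1727, 1773 and 1661 CPM against 1294 CPM in CP1. The fibroblast list was 10th and the collagen I, III and V list 7th.

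Acta2 and Tagln, genes of the contractile apparatus of smooth muscle and myofibroblasts, were both highest in CT3. Acta2 was at 113, 134, 134 and 153 CPM against 37.4 CPM in CT4, and Tagln at 44.4, 41.5, 62.3 and 76.9 CPM against 14.04 CPM in CT1. The other genes of the pericyte and smooth muscle list did not follow: Myh11 was at 0.870 to 5.79 CPM, Rgs5 at 9.70 to 20.3 CPM and Cspg4 at the lowest level of 15 types. The neuron, glia and epithelium lists were all at their lowest of 15 types in CT3, and the osteoclast and hypertrophic cartilage lists at the 14th level. The muscle and osteocyte lists were 13th and 12th, the osteoblast list 9th, the endothelium list 7th with 166 to 219 CPM and the immune list 6th with 116 to 149 CPM.

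Both cell cycle lists stood at the 3rd level of 15 types. The list of 52 G2/M genes summed to 2142, 2647, 2361 and 2493 CPM in CT3 against 2575 CPM in CP2, and 13 of them were highest in CT3. The 40 S-phase genes summed to 1181 to 1354 CPM. In nuclei thinned to 2000 UMIs, 9.79, 11.0, 12.3 and 13.7% of CT3 nuclei held 10 or more G2/M UMIs, a mean of 11.7%, next to 11.9% in CP2, 12.1% in the hypertrophic chondrocyte/osteoblast type, 1.31% in CT4 and 5.86% in osteoclasts. Mki67, a marker of dividing cells, had a UMI in 9.79 to 14.3% of thinned CT3 nuclei, which overlapped the 8.73 to 13.8% in CP2 and the 7.10 to 11.9% in osteoclasts.

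CT3 was not uniform along its strip on the map. The strip was divided at 4.6 and 5.2 on axis 1 into a low end of 382 nuclei, a middle of 277 and a high end of 180, with median depths of 4722, 4949 and 4756.5 UMIs. Positions on the map come from the same expression values, so the genes below describe the strip and carry no test. Of 6983 genes, 46 were over 2-fold higher at the high end in all 4 libraries and 25 at the low end, on CPM + 20.

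At the high end, Pappa2 was at 361, 329, 511 and 568 CPM, against 3.86, 15.6, 13.7 and 20.0 CPM at the low end. Lgr5 was at 1159, 1217, 1357 and 764 CPM at the high end and 61.7 to 171 CPM at the low end. Col8a1, a short-chain collagen gene, averaged 225, 918 and 2719 CPM from the low end to the high end. Each of these was graded, with the middle between the ends. Rspo3, whose product binds Lgr5, followed the same order with means of 152, 263 and 616 CPM, as did Sema3a, a repulsive guidance cue, with 26.4, 57.1 and 236 CPM, and the natriuretic peptide receptor gene Npr3 with 18.1, 44.7 and 216 CPM.

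The low end had other genes. Kcnip1 was at 577, 638, 608 and 593 CPM there and at 79.0, 120, 181 and 144 CPM at the high end. Lef1, a transcription factor of Wnt signalling, averaged 274 CPM at the low end, 136 CPM in the middle and 63.4 CPM at the high end. Ptch1, a receptor and target gene of hedgehog signals, averaged 304, 127 and 110 CPM from the low to the high end. Pdzrn4 had the highest level of these, at 6163 to 8494 CPM at the low end and 927 to 2141 CPM at the high end. Genes of bone differed among themselves. Mmp13 averaged 330, 157 and 122 CPM from the low to the high end, Alpl 239, 170 and 95.4 CPM, Sp7 74.2, 55.4 and 37.9 CPM and Runx2 3166, 2274 and 1704 CPM, whereas Bglap averaged 227, 195 and 196 CPM, Dmp1 73.5, 59.9 and 78.0 CPM and Ibsp 1001, 1005 and 1103 CPM. Osteoclasts averaged 202 CPM of Bglap and 82.1 CPM of Dmp1, close to the levels along the strip. They averaged 176 CPM of Mmp13, 97.0 CPM of Alpl and 51.8 CPM of Sp7. The part of free RNA in these levels was not tested.

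Other leading genes differed less between the ends in their mean. Mid1 was 1.06 to 1.43 and Gfra2 1.14 to 1.67 higher at the high end on the log2 scale. Fgf7 averaged 337, 472 and 463 CPM from the low end to the high end, and Trp63 132, 166 and 119 CPM. Acan differed by -0.00 to 0.76 on the log2 scale between high and low end and Col3a1 by -0.78 to -0.03. Trp63 and Fgf7 were thus found along the whole strip, and the Lgr5, Pappa2 and Kcnip1 levels of CT3 were averages over its ends.

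**Figure D4:**
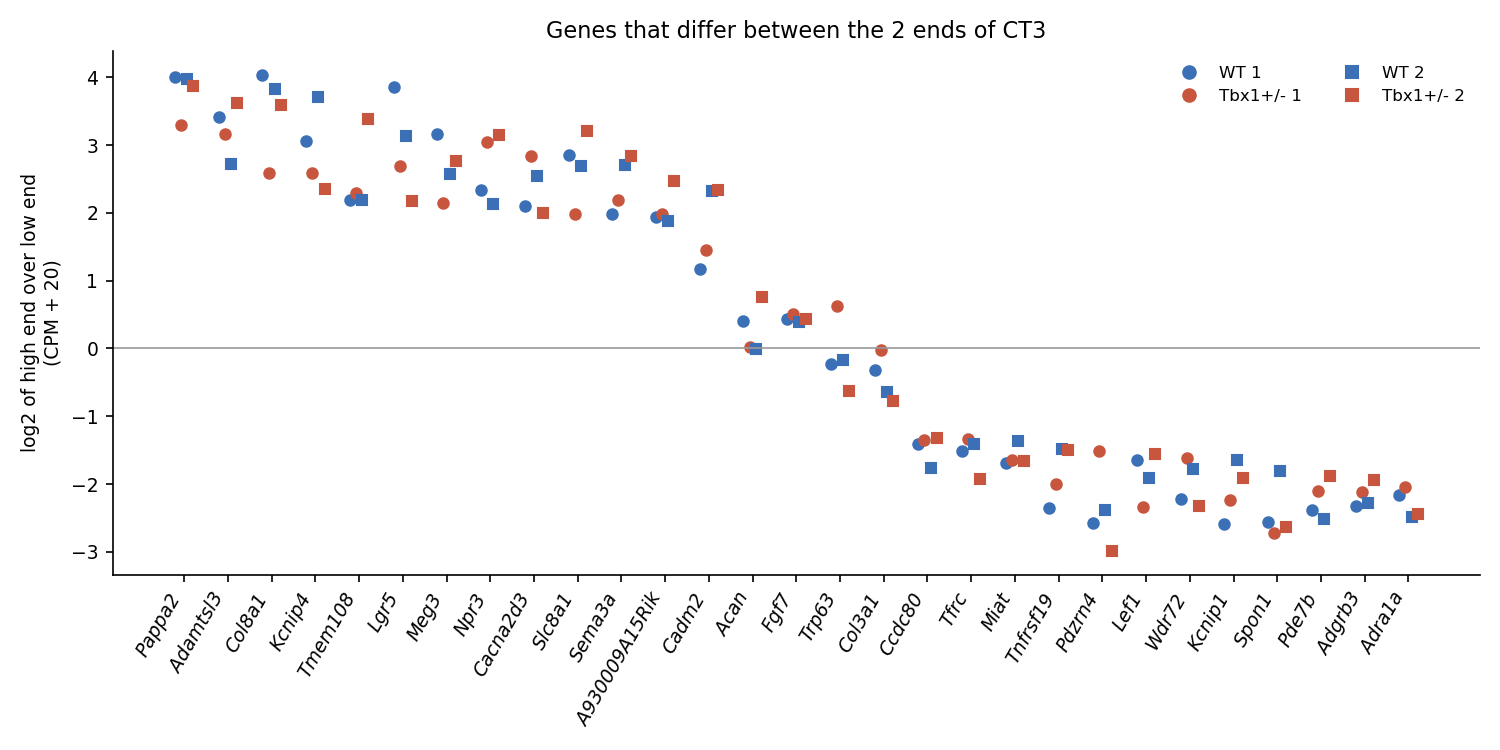
Log2 ratio of CPM + 20 at the high end over the low end of the CT3 strip for genes of either end and 5 others, with 1 point per library and a line at equal levels. Pappa2 lies between 3.30 and 4.0 and Kcnip1 between -2.59 and -1.65, whereas Fgf7, Trp63, Acan and Col3a1 lie between -0.78 and 0.76.

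Genotypes were compared next. Tbx1 itself was near the background in CT3, with 10, 7, 8 and 11 UMIs or 8.70, 6.76, 5.54 and 9.95 CPM. This was the 14th level of 15 types and below the osteoclast mean of 11.2 CPM, whereas CP6 averaged 81.8 CPM. The genotypes overlapped, and 0.851 to 2.86% of thinned CT3 nuclei held a Tbx1 UMI against 1.94 to 3.22% of osteoclasts. Tbx1 was below the filter of the test in CT3. In a fit with no filter the log2 difference of Tbx1+/- over WT was 0.26 (SE 0.53, adjusted p = 0.988, edgeR quasi-likelihood test), so the level of Tbx1 in CT3 checks no label.

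CT3 made up 2.40% of annotated nuclei in WT 1 (95% Wilson interval 2.11 to 2.71), 2.45% in Tbx1+/- 1 (2.14 to 2.79), 4.0% in WT 2 (3.53 to 4.52) and 2.84% in Tbx1+/- 2 (2.46 to 3.27). Intervals cover counting error only. The Tbx1+/- shares lay between those of the WT libraries. The log2 difference of Tbx1+/- over WT was -0.27 (SE 0.32, adjusted p = 0.855 over 15 types, edgeR quasi-likelihood test), smaller than the spread between libraries, and it turned to 0.14 without WT 2. Of nuclei in CT1 to CT4 alone, CT3 made up 11.7, 13.7, 22.7 and 23.5%, so the libraries differed by batch more than by genotype, and the difference turned to 0.11.

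The ends of the strip were split unevenly. The high end held 23.0% of CT3 nuclei in WT 1 (18.1 to 28.8), 18.8% in Tbx1+/- 1 (14.1 to 24.6), 23.0% in WT 2 (18.1 to 28.8) and 16.5% in Tbx1+/- 2 (11.8 to 22.6). Both Tbx1+/- libraries were below both WT libraries, but 2 libraries against 2 cannot give a two-sided exact permutation p under 0.333, and the Wilson intervals overlap. The low end held 44.8, 42.7, 38.1 and 51.1%, with overlapping genotypes.

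No gene passed the call (adjusted p under 0.05 and over 1.5-fold) between genotypes in the CT3 sums. The edgeR quasi-likelihood test without a batch term called 0 of 10876 genes (0%), with a smallest adjusted p of 0.378, and DESeq2 called 0. At an unadjusted p under 0.05, edgeR had 130 genes higher in Tbx1+/- (1.2% of those tested) and 222 lower (2.04%), and DESeq2 had 51 genes in all. A fit with the batch (replicate block) called 22 genes (0.202%), 4 higher and 18 lower. The fit without a filter on low counts called 11 genes of 21111, all of them among these 22. Leaving out WT 1 gave 66 calls and leaving out WT 2 gave 44, of which 9 and 16 were among the 22, while leaving out Tbx1+/- 1 or Tbx1+/- 2 gave 1 call each. In these fits the genotype that lost a library kept 1, which was assumed to vary like the other genotype. The number of called genes thus differed between fits, and the genes below are named by the smallest unadjusted p, as genes not called in the fit without the batch.

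The 4 lower genes given here have known roles at neuronal contacts or as secreted neural factors. Cntn3, a contactin cell adhesion gene, was at 53.1, 17.4, 76.9 and 17.2 CPM from 61, 18, 111 and 19 UMIs, a log2 difference of -1.93 (SE 0.29, adjusted p = 0.378). Lrrc4c, which encodes the netrin-G ligand NGL-1, was at 50.5, 12.6, 45.0 and 14.5 CPM, a log2 difference of -1.82 (SE 0.29, adjusted p = 0.378). Both Tbx1+/- libraries were below both WT libraries for each gene, and with the replicate block the adjusted p was 1.8e-05 for Cntn3 and 0.000561 for Lrrc4c. Tafa1, a secreted neurokine gene, was at 29.6, 6.76, 19.4 and 4.52 CPM (log2 difference -2.10, SE 0.44), and Cadm2, a synaptic adhesion gene, at 164, 88.8, 167 and 91.3 CPM (-0.89, SE 0.17). With the replicate block both were called as well, at an adjusted p of 0.00896 for Tafa1 and 0.0022 for Cadm2 (edgeR quasi-likelihood test). Without the 8% of nuclei with most UMIs the log2 differences were smaller, at -1.25 for Cntn3, -1.37 for Lrrc4c, -1.55 for Tafa1 and -0.58 for Cadm2.

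None of the 4 was a gene of which CT3 held the most. Cntn3 averaged 2993 CPM in CP6, Tafa1 721 CPM and Cadm2 682 CPM in CP5, and Lrrc4c 448 CPM in CP4. A few nuclei carried much of the UMIs: the 3 nuclei with most Cntn3 held 47.5% of its CT3 UMIs in WT 1 and 60.4% in WT 2, against 33.3 and 26.3% in the Tbx1+/- libraries. In thinned nuclei, 6.38, 2.39, 8.51 and 1.14% of CT3 held a Cntn3 UMI, while osteoclasts of the same libraries held 6.30, 8.97, 7.72 and 7.10%. CT3 was thus little above osteoclasts in the WT libraries and below them in the Tbx1+/- libraries. For Lrrc4c the CT3 shares were 5.53, 2.39, 6.81 and 4.0% against 4.04 to 7.67% in osteoclasts, and for Tafa1 4.68, 1.91, 4.26 and 0% against 2.84 to 4.18%. The part of other cells' RNA in these differences was not tested.

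Cadm2 was also a gene of the high end of the strip, which was smaller in both Tbx1+/- libraries. Cadm2 averaged 63.2 CPM at the low end and 269 CPM at the high end. On the mean of the 4 libraries, 18 of the 222 genes lower at an unadjusted p under 0.05 (8.11%) were over 2-fold higher at the high end. This compares with 0 of the 130 higher genes and with 119 of all 10876 tested (1.09%), and the 18 are 15.1% of those 119. How much of the differences comes from the smaller high end was not tested.

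The 5 higher genes named by the rule had less change or fewer UMIs. Trp63, the only leading gene among them, was at 91.3, 137, 111 and 205 CPM, a log2 difference of 0.74 (SE 0.22, adjusted p = 1.00, and 0.0224 with the replicate block). Both Tbx1+/- libraries were above both WT libraries, but in Tbx1+/- 2 a single nucleus held 51 of the 227 UMIs, and the log2 difference was 0.41 without Tbx1+/- 2 and 1.03 without Tbx1+/- 1. The thinned share of nuclei with Trp63 was 12.3, 16.7, 14.9 and 13.7%, in which the genotypes overlapped. Ect2, a cytokinesis regulator, was at 33.1, 58.9, 37.4 and 64.2 CPM (0.78, SE 0.23), and Ank, a pyrophosphate transporter, at 60.02, 76.3, 51.9 and 140 CPM (0.94, SE 0.27), with 36 of its 155 UMIs in Tbx1+/- 2 from 1 nucleus. Ank was called with the replicate block (adjusted p = 0.0197) and Ect2 was not (0.209). The log2 difference of Ank was 0.43 without Tbx1+/- 2 and 1.34 without Tbx1+/- 1, and without the 8% of nuclei with most UMIs it was 0.51 for Ank and 0.35 for Ect2. Jup, which encodes the junction protein plakoglobin, and Scrn2 rested on 6, 14, 4 and 15 and on 3, 12, 3 and 10 UMIs. Ank averaged 82.1 CPM in CT3 against 799 CPM in osteoclasts, and Jup 8.77 against 9.35 CPM. Ect2 (48.4 against 17.6 CPM) and Scrn2 (6.33 against 3.68 CPM) were above their osteoclast means, as was Trp63. The part of other cells' RNA in the levels of Ank and Jup was not tested.

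**Figure D5:**
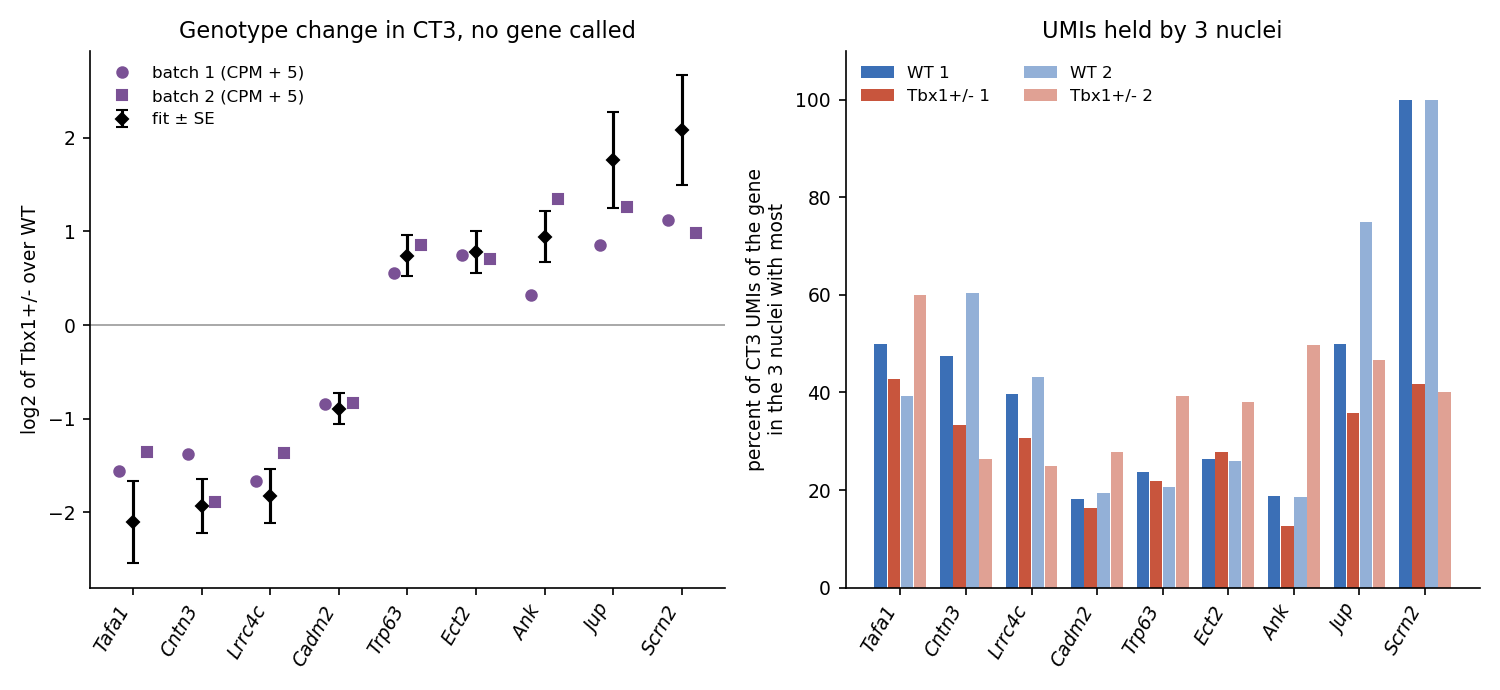
Left, log2 difference of Tbx1+/- over WT in CT3 for 4 lower and 5 higher genes named by smallest p, with the fit and its SE in black and the difference within each batch (CPM + 5) in purple. Right, percent of each gene's CT3 UMIs held by the 3 nuclei with most, per library: for Cntn3 this was 47.5 and 60.4% in the WT libraries and 33.3 and 26.3% in the Tbx1+/- libraries.

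Beyond these genes, the 22 calls with the replicate block held 4 haemoglobin genes that were lower in Tbx1+/-. Bpifa1 and Ttr were called as well. Bpifa1 was at 140, 58.9, 48.5 and 6.33 CPM in CT3 and at 155, 44.5, 31.4 and 3.32 CPM in osteoclasts. Ttr was at 6.09, 108, 22.9 and 23.5 CPM in CT3. Its log2 difference on CPM + 5 was 3.35 in batch 1 and 0.03 in batch 2. A call with the block thus did not need a difference in both batches. The part of free RNA in Bpifa1 and Ttr was not tested. Haemoglobin transcripts come from red blood cells, and the list of erythroid genes was 2nd of 15 types in CT3 through WT 1. Haemoglobin UMIs numbered 2963, 586, 649 and 413 in CT3, and 2 nuclei of WT 1 held 78.7% of the UMIs of that library (1826 and 505 UMIs). Nuclei with 20 or more haemoglobin UMIs numbered 2, 1, 1 and 1. Without these 5 nuclei the block fit called 1 gene, Cntn3 (adjusted p = 0.0362), and the fit without the block 0, although the log2 differences of Lrrc4c (-1.82), Cadm2 (-0.88) and Trp63 (0.73) in the block fit hardly moved. Without the 34 nuclei away from the strip the block fit called 23 genes and the fit without it 0. Both alternatives were chosen after the data had been seen.

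In the fit without the batch no member of a gene group was called. At an unadjusted p under 0.05, 1.2% of all genes tested were higher and 2.04% lower, and the counts below stand beside these shares. Of the 26 leading genes, 1 was higher (Trp63) and 2 were lower (4933400A11Rik and Agtr1a) at that p, and their median log2 difference was -0.09 against -0.00 over all genes tested. Fgf7 (-0.14, SE 0.23) and Kcnip1 (0.05, SE 0.16) differed by less than the spread between libraries, and Lgr5 (-0.46, SE 0.25) was higher in batch 1 and lower in batch 2. Of 49 G2/M genes tested, 4 were higher at that p (Hmgb2, Kif20b, Cdc25c and Ect2, all with roles in cell division) and none lower, with a median of 0.25. Of 35 S-phase genes none had such a p, with a median of -0.10. Of 10 Wnt genes tested, 1 was lower, the R-spondin gene Rspo2, at 41.8, 18.3, 67.9 and 33.5 CPM, which was called with the block (adjusted p = 0.0433). Rspo2 belonged to the high end, where it averaged 144 CPM against 5.22 CPM at the low end. Of 11 BMP and GDF genes, 2 were lower (Bmp5 and Bmper), and the FGF list (7 tested), the 12 regulators of craniofacial and otic mesenchyme tested and the 10 TGF-beta genes had none at that p. None of the fixed markers of cartilage, bone or connective tissue passed it, with Acan at -0.07 (SE 0.18), Col3a1 at -0.20 (SE 0.31) and Vcan at -0.25 (SE 0.16).

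The genotype difference in CT3 was then set against that in CT1, CT2 and CT4 together, which held 4550 nuclei. The edgeR interaction term, with library as a term, called 0 of 13789 genes (0%), while 398 had an unadjusted p under 0.05 and DESeq2 called 1. The smallest adjusted p was 0.223, for Cntn3, which was lower in Tbx1+/- within CT3 but stood at 233, 255, 340 and 464 CPM in the other CT nuclei, higher in Tbx1+/- in both batches. That sum mixes clusters whose shares differ between libraries, since CT1 made up 73.0, 65.4, 40.8 and 19.9% of its nuclei and CT2 15.1, 22.4, 32.8 and 43.7%. Within CT1 alone Cntn3 was at 120, 93.0, 122 and 91.3 CPM, lower in Tbx1+/- in both batches as in CT3, and within CT2 at 833, 743, 786 and 874 CPM. How much of the interaction comes from the mix of clusters was not tested. The difference of the log2 differences was -2.22 (SE 0.28). Next were Lrrc4c (-1.73, SE 0.28, adjusted p = 0.746) and Galntl6 (2.19, SE 0.37, adjusted p = 0.746), a glycosyltransferase gene of which 12 of the 22 CT3 UMIs in Tbx1+/- 1 lay in 1 nucleus. The count was 32 without Tbx1+/- 1 and 5 without WT 2, with the remaining library of that genotype assumed to vary like the other genotype.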

How the data were processed

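Nuclei were isolated from frozen PTB, and libraries were prepared with a droplet kit that reads the 3′ ends of transcripts. UMI counts per gene and barcode were deposited by the authors as raw matrices, made with Cell Ranger 7.0.0 on mm10 per the labels. The authors removed nuclei with few genes and outliers, corrected free RNA, clustered and annotated. Their annotation, and the UMAP coordinates used here as a score without unit, came with the deposited table. Free RNA is not corrected in the raw counts used here, and no doublet removal was described. The paraflocculus and flocculus files were not used here.

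Counts were summed over CT3 nuclei per library. Genes were tested with edgeR 4.0.16 (quasi-likelihood, filterByExpr, TMM, Benjamini-Hochberg) in R 4.3.3, and the SE is the log2 difference over the root of F. A call needed an adjusted p under 0.05 and a change above 1.5-fold. Shares of nuclei used an edgeR quasi-likelihood test on nuclei per type over 15 types, with a threshold of 0.1. All annotated nuclei of a library were its total, with no filter, no TMM and no dispersion trend. This took the place of the DCATS test of the study, which was not run here. The scripts were tested on simulated data. DESeq2 1.42.0, other size factors, no filter, nuclei with at least 2000 genes, removal of the 8% of nuclei with most UMIs, other denominators and each library left out were alternatives, as was a replicate block. Its pairing takes the replicate numbers of the labels as the 2 batches of animals in the study's methods, which the labels do not state. The deviations of same-numbered WT and Tbx1+/- libraries correlated at r = 0.236 over 10876 genes. Since pooled animals made each library, p-values rest on the spread between 2 pools per genotype. In the fit without the batch this spread includes any difference between batches. The estimate of each gene's spread also draws on the other genes.

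Named genes were the study's PTB markers, the 25 genes farthest above the mean of other types and the 10 farthest above the highest, the 5 higher and 5 lower genes of smallest p with the same direction in both batches, 5 genes of the interaction test and members of 34 gene lists. A pair of genes that met these rules is not reported here. Genes called with the block and genes of the map ends were named after their values were seen. The nuclei and lists were chosen with earlier results of these data known. Gene positions and overlaps came from GENCODE vM21.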

Additional observations from a re-analysis of the deposited data

Results flagged for a closer look

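For 4 of the genes given here the Tbx1+/- libraries lay on one side of the WT libraries within CT3 in both batches and on the other side in the sum of CT1, CT2 and CT4. The share of each cluster in that sum differed between libraries, and single clusters did not all follow it: within CT1, Cntn3 was lower in Tbx1+/- in both batches (120, 93.0, 122 and 91.3 CPM), as in CT3, and Ect2 (20.4, 20.8, 22.9 and 14.9 CPM) and Trp63 (3.92, 4.16, 3.18 and 0 CPM) were not lower in batch 1. The differences between the log2 differences were tested with the edgeR interaction term, and none passed at an adjusted p under 0.05. Cntn3 had a difference of -2.22 (adjusted p = 0.223). Ect2 had 1.25 and Trp63 1.20, the latter from 4.70, 4.15, 4.99 and 2.08 CPM in the other CT nuclei. Eif2s3y, a gene of the Y chromosome, had 0.99, with 96.6, 110, 70.7 and 85.0 CPM in CT3 against 107, 66.4, 95.8 and 52.3 CPM in the other CT nuclei. For Ect2, Trp63 and Eif2s3y the adjusted p was 1.00.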

How the results depend on the processing

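The count of 0 genes called between genotypes in CT3 stayed 0 with RLE size factors, DESeq2, nuclei of at least 2000 genes and without the 8% of nuclei with most UMIs. It was 11 without a filter on low counts and 22 with the replicate block, which takes the replicate number as the batch. Leaving out single libraries gave 1 to 66. Of the alternatives added after seeing the data, the block gave 23 without the nuclei away from the strip and 1 without those rich in haemoglobin. The interaction count of 0 became 21 without a filter and 1 with DESeq2, ranged from 0 to 32 without single libraries and stayed 0 with no replicate block. The CT3 share differed by -0.23 with the replicate block and by 0.11 among CT1 to CT4 nuclei, and by -0.60 to 0.14 (0.14 without WT 2) when single libraries were left out. The Tbx1 difference in CT3 ranged from -0.074 (without Tbx1+/- 2; -0.058 without WT 2) to 0.57 when single libraries were left out. Col3a1 was 0.093 above the median of the other types, although below their mean. Acan, 0.042 above that mean, was 1.54 above the median of the other types. Against the mean it was -0.051 with nuclei of at least 2000 genes and ranged from -0.15 (without WT 2) to 0.17 without single libraries. The leading genes stayed 2.33 to 4.62 above the mean, or in 1 alternative the median, of the other types in every alternative run. The cause of these changes was not tested. Scrn2, with 3 to 12 UMIs per library, had an SE of 0.59.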
